A study of Mus musculus with 44 samples.

Results

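Lungs of Timp2-mutant mice that had received tumour cells and recombinant human TIMP2 (rTIMP2) were compared with tumour-free lungs of the same genotype, gene by gene. The comparison covers 10 of the 44 RNA libraries of the series, chosen by their sample titles: 5 libraries labelled as treated tumour lungs and 5 labelled as tumour-free. All came from C57BL6j mice with a mutant Timp2 gene. The treated mice had 1 M LL/2-Luc2 cells instilled into the trachea, a luciferase-marked line derived from Lewis lung carcinoma, and daily rTIMP2 at 200 µg per kg by intraperitoneal injection. A further 5 mutant lungs with the same cells and the vehicle HBSS (Hanks' balanced salt solution) serve here as the untreated tumour reference, and wild-type (WT) lungs appear where the genotypes are compared. The nature of the Timp2 mutation, the age and sex of the mice, the start of treatment and the day of collection are not stated in the labels, nor whether replicates came from separate mice, so p-values measure the spread between these samples. Tumour-free lungs carry the tumour cell-line label too, and the treatment field of treated lungs holds a running number, so the titles set the groups. Each library came from about 3 mm3 of lung, with selection of polyadenylated RNA.

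TIMP2 is a secreted protein that binds matrix metalloproteinases and blocks their activity. With the membrane protease MMP14 it also takes part in activating the gelatinase MMP2, and it binds the integrin made of Itga3 and Itgb1 on endothelial cells. The lung normally makes much Timp2 mRNA in its stromal and vascular cells. The groups are called mutant tumour-free, mutant treated and mutant HBSS below, and the gene Mt2, a metallothionein, is unrelated to the submitters' abbreviation MT2 for the mutant.

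Values are the authors' normalized counts, in which about 1 unit stands for 1 read. The 10 libraries held an estimated 12.4 to 15.0 M reads. Treated replicate 2 stood apart from the other 4 treated libraries. The reporter Luc2 was at 75.5, 0.983, 50.9, 37.9 and 55.3 in treated replicates 1 to 5, at 0 in each tumour-free library, and at 47.6 to 70.9 in the HBSS lungs. Replicate 2 was thus at about 1 read while the other 4 treated lungs overlapped the HBSS range. Across genes, the correlation of replicate 2 with the tumour-free mean was 0.98, against 0.74 to 0.81 for the other treated libraries. Whether this lung carried tumour, or whether its label is right, was not tested, and it is counted under its label as 1 of the 5 treated lungs. Counts and values are therefore also given without it. The tumour-free lungs have sample numbers in another range than the tumour lungs. The labels do not say whether they form another cohort or batch, and any such difference cannot be told apart from that of tumour. The Y-linked RNA helicase gene Ddx3y was at 0.91 to 2.72 in tumour-free and at 234 to 1265 in treated lungs, with its highest value in replicate 2. In that library the X-inactivation RNA Xist was at 119, against 1778 to 4843 in the other 4 treated and 4488 to 6657 in the tumour-free lungs. The labels give no sex, and its part in the results was not tested. In bulk tissue, fewer cells of a type and less RNA per cell cannot be told apart.

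Most tested genes differed between treated and tumour-free lungs. Of 16754 genes tested with limma, 9942 (59.3%) passed at an adjusted p under 0.05, with 4458 (26.6%) higher and 5484 (32.7%) lower in treated lungs. Changes over 2-fold were more often falls, with 3862 genes lower and 2293 higher. The values of the groups did not overlap for 4372 genes (26.1%). Without treated replicate 2, 12773 of 17170 genes (74.4%) passed, with 6007 (35.0%) rising and 6766 (39.4%) falling. In mutant HBSS lungs against the same tumour-free lungs, 11457 of 16999 genes (67.4%) passed, with 5360 (31.5%) rising and 6097 (35.9%) falling. The tumour-free libraries are shared by these comparisons, so their counts are not independent. The balance of higher and lower calls turned under quantile normalization, with 5234 higher and 4664 lower, and was closer to even with equal library totals, with 4896 and 5079. Quantile normalization moved the median log2 fold change of all genes from -0.07 to 0.09. Log2 fold changes below are on the log2(value + 1) scale as deposited, followed by their standard error (SE).

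Among genes with non-overlapping groups and a mean of at least 50 in the higher group, Hmga2 had the largest rise, and Rhox5, Arg1 and Ccl2 were among the 12 largest. Hmga2, a chromatin protein gene active in embryos and in many carcinomas, was at 10.4, 9.52, 13.6, 12.7 and 14.1 in tumour-free and at 5299.5, 63.9, 3309, 4378 and 3112 in treated lungs, a log2 fold change of 7.06 ± 1.04 (limma adjusted p = 0.00563). The groups did not overlap, and replicate 2 lay closest to the tumour-free lungs. The mean difference in Hmga2 was also tested by an exact two-sided permutation test, which gave p = 0.00794, the smallest that 5 against 5 allows (0.0159 adjusted over 4 such tests). The same values were obtained for Luc2. Tumour-free lungs were given no reporter cells, so any Luc2 read in every treated lung fixes this outcome in advance. Against HBSS lungs the exact permutation p was 0.5 for Hmga2 and 0.278 for Luc2 (adjusted 0.5 and 0.37). Rhox5, a reproductive homeobox gene, rose by 6.99 ± 1.04, with values of 2744, 48.2, 2669.5, 2762 and 2802 in treated lungs and 3.79 to 15.4 in tumour-free ones.

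Other large rises included Dkk2, which encodes a secreted Wnt modulator (6.29 ± 0.99), the heparin-binding growth factor gene Ptn (5.66 ± 1.05), and Twist1, a mesenchymal transcription factor gene (5.40 ± 0.98). Sh2d5 and the homeobox gene Hoxd8 rose by 5.35 ± 0.93 and 4.85 ± 0.95. Each of these genes had non-overlapping groups, and treated replicate 2 had the lowest treated value in each. Prl2c2 and Prl2c3, placental proliferin genes, were at 0 to 1.82 in tumour-free lungs and at 21.6 to 398 and 18.7 to 220.3 in treated lungs. They are near-identical copies whose individual values are uncertain. Exosc6, a subunit gene of the RNA exosome, was called as well, but its tumour-free values are small fractions of a read and its level is uncertain.

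By the same rule Colq had the largest fall. This gene, which encodes the collagen-like tail of acetylcholinesterase, was at 497, 661, 664, 398 and 551 in tumour-free and at 3.92, 265, 8.48, 7.77 and 27.6 in treated lungs (-4.78 ± 0.90, adjusted p = 0.00584). Replicate 2 was again the treated lung nearest to the tumour-free range without reaching it. The organic cation transporter gene Slc22a3 fell by 4.53 ± 0.67 on the log2 scale and the sialyltransferase gene St8sia2 by 4.48 ± 0.82. Tril, an accessory gene of Toll-like receptor signalling, and the fibroblast gene Mamdc2 changed by -4.46 ± 0.76 and -4.27 ± 0.75. Scube2, a gene of Hedgehog ligand release, was at 11.8 to 452 in treated lungs against 765 to 1169. The eosinophil chemokine receptor gene Ccr3 was at 0 to 10.8 against 40.8 to 65.3 (-4.03 ± 0.66). Shisa2, Slc38a5, Slc5a12, Adcy8 and Pakap complete the 12 largest falls, with log2 fold changes between -4.22 and -4.07.

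**Figure D1:**
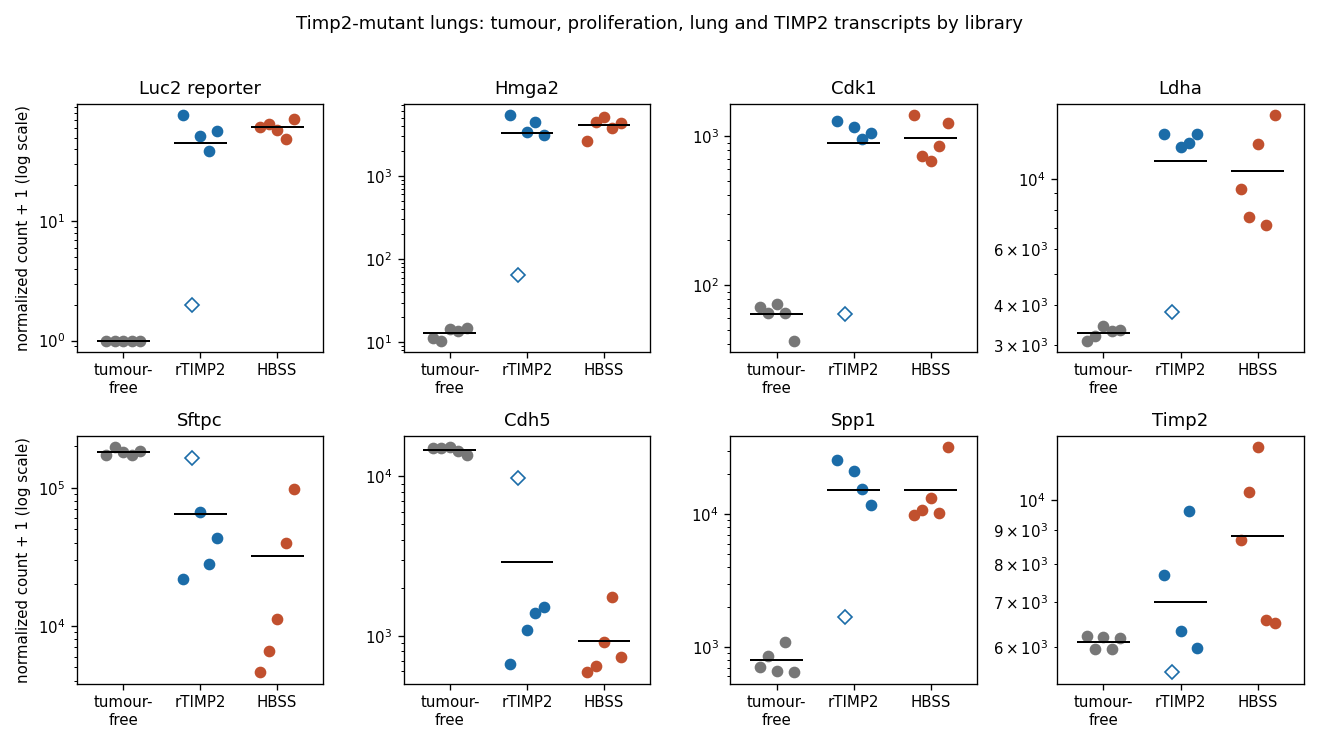
Normalized counts plus 1 (log axis) of 8 genes in the 5 tumour-free, 5 rTIMP2-treated and 5 HBSS lungs of Timp2-mutant mice. Points are libraries, open diamonds are treated replicate 2 and bars are group means; for Cdk1 replicate 2 (62.9) lies within the tumour-free range while the other treated lungs are at 949 to 1263.

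Mouse Timp2 itself did not pass the test in treated lungs. It was at 6237, 5948, 6208, 5950.4 and 6184 in tumour-free lungs and at 7695, 5487, 6338, 9597 and 5979 in treated lungs, a log2 fold change of 0.17 ± 0.17 (adjusted p = 0.39). Treated values lay on both sides of the tumour-free range, with replicate 2 below it and replicates 1, 3 and 4 above. In HBSS lungs Timp2 was at 8697, 10259.8, 11992, 6582 and 6512 (0.49 ± 0.18, adjusted p = 0.0286). The injected human protein leaves no mouse transcript, and host and tumour-cell Timp2 transcripts cannot be told apart here.

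Of the 5 genes of inhibitors of matrix proteases (TIMPs and Reck), Timp1 was higher and 3 were lower. Timp1, the inducible family member, was at 55.0, 80.0, 77.1, 51.9 and 64.7 in tumour-free and at 332, 220.2, 419, 312 and 518 in treated lungs (2.40 ± 0.24, adjusted p = 0.00117). The groups did not overlap, and here replicate 2 was above the tumour-free range too. Timp3, which is held in the matrix, was at 1346, 16914, 2589, 1697 and 2244 in treated lungs against 13128 to 15913, a change of -2.34 ± 0.57. Its 4 low treated values contrast with replicate 2, which was above the tumour-free range. Reck, a membrane-anchored inhibitor of metalloproteinases, fell by 2.90 ± 0.57 on the log2 scale.

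Among the proteases TIMP2 acts on or with, the gelatinase Mmp2 and the membrane protease Mmp14 moved in opposite directions. Mmp2 was at 2320.1, 2343, 2575, 1597 and 2318 in tumour-free and at 128, 807, 149, 226 and 218 in treated lungs (-3.21 ± 0.43, adjusted p = 0.00447), with no overlap. Mmp14 was at 4018, 639, 4667, 6420.3 and 5268 in treated against 884 to 1186 in tumour-free lungs (1.69 ± 0.53, adjusted p = 0.0202). Replicate 2 was the 1 treated lung below the tumour-free range of Mmp14. The Mmp14 call was lost without treated replicate 3 or 4 (adjusted p up to 0.0501). The macrophage elastase gene Mmp12 rose by 2.51 ± 0.75 and the membrane protease gene Mmp15 changed by -3.59 ± 0.66. Mmp9, the other gelatinase, had a log2 fold change of 0.48 ± 0.33 (adjusted p = 0.221). Over the list of 15 measured metalloproteinase genes, 3 were higher (20%) and 7 lower (46.7%), against 26.6% and 32.7% of all genes. The list median of the log2 fold change was -0.47. The count of higher genes was 5 without tumour-free replicate 4 and 1 without treated replicate 3 or 4.

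ADAM and ADAMTS proteases were mostly lower, with 15 of 22 lower and 3 higher (5 without treated replicate 2). Adamts17, a secreted protease of the ADAMTS family, was at 2.83 to 13.8 in treated and 66.4 to 180.1 in tumour-free lungs. The leukocyte sheddase gene Adam8 rose by 1.56 ± 0.32 and Adamts14, which trims procollagen, by 3.48 ± 0.60. Of the 10 measured genes of the plasminogen activator system, 4 were higher (40%) and 2 lower (20%), against 26.6% and 32.7% of all genes. Plau, the urokinase protease, was at 1491, 147, 1576, 1447 and 1778 in treated against 191 to 235 in tumour-free lungs (2.20 ± 0.60), replicate 2 being below that range. Thbd, the anticoagulant receptor of endothelium, changed by -3.27 ± 0.69.

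Among integrins, 16 of 23 genes were lower and 3 higher (5 without treated replicate 2). Itga3, a chain of the endothelial TIMP2 receptor, was at 799, 3534, 924, 1836 and 1731 against 4366 to 4698 (-1.56 ± 0.35, adjusted p = 0.00618), with no overlap. Its partner Itgb1 had a log2 fold change of -0.25 ± 0.14 (adjusted p = 0.144). Itga8, an integrin of lung fibroblasts and smooth muscle, changed by -3.39 ± 0.64. Itgam, the integrin chain of myeloid cells, rose by 1.61 ± 0.30. Of the 19 genes of epithelial-mesenchymal transition, 12 were lower and 4 higher. The epithelial cadherin gene Cdh1 was at 278, 4143, 595, 544 and 776 in treated against 5015 to 5422 in tumour-free lungs (-2.73 ± 0.57).

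Genes of dividing cells rose together. All 29 genes of the cell cycle list passed the test as higher, with a median log2 fold change of 2.43, against a median of -0.07 over all genes tested. Cdk1, the kinase that drives entry into mitosis, was at 70.2, 63.8, 73.5, 63.7 and 41.3 in tumour-free and at 1263, 62.9, 1137, 949 and 1048 in treated lungs (3.32 ± 0.73, adjusted p = 0.00611). The groups overlap only through replicate 2, which lies within the tumour-free range. The mitotic kinase gene Plk1 rose by 2.79 ± 0.61, the proliferation antigen gene Mki67 by 1.63 ± 0.50 and Birc5 (survivin) by 3.50 ± 0.57. The list median was 2.72 in HBSS lungs and 3.02 in treated lungs without replicate 2, in which it was 0.17.

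Genes of DNA replication followed, with 31 of 32 measured genes higher. The median was 1.79, with 2.00 in HBSS lungs and 2.22 in treated lungs without replicate 2. Rrm2, a subunit of ribonucleotide reductase, was at 679.8, 117, 673, 911 and 849.5 against 68.5 to 110.0 (2.62 ± 0.50), with no overlap. E2f8, a repressor of the E2F family, rose by 3.16 ± 0.65 and the helicase subunit gene Mcm2 by 1.45 ± 0.37. E2f2 was the 1 lower gene (-0.94 ± 0.22). All 19 genes of ribosome production and translation were higher, with a median of 1.40 (1.75 in HBSS lungs and 1.72 without replicate 2). Myc, a driver of ribosome production, was at 3189.9, 299, 2804, 5171 and 4773 in treated and at 119 to 166 in tumour-free lungs (3.98 ± 0.66), replicate 2 being above the tumour-free range as well. The nucleolar protein gene Nop56 rose by 2.16 ± 0.40. On the list of tumour-cell transcripts, 12 of 16 measured genes were higher and 2 lower. Medians were 1.74 in treated lungs, 2.63 in HBSS lungs and 2.19 in treated lungs without replicate 2. Mycn, active in embryonic lung, was 1 of the 2 lower genes, at 2.83 to 14.7 against 40.0 to 80.9.

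Promoters of 2 of these genes are shown because mitotic genes share a short element, the cell cycle genes homology region (CHR). The windows run from 250 bases before to 50 bases after the start of each gene, 5′ to 3′ on the gene's strand, from RefSeq on build GRCm38.p6. Capitals mark TTTGAA, searched on both strands. The Cdk1 window is chr10:69352863-69353162 on the minus strand and that of Cdc20, an activator of the anaphase-promoting complex, is chr4:118437294-118437593 on the minus strand.

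Cdk1: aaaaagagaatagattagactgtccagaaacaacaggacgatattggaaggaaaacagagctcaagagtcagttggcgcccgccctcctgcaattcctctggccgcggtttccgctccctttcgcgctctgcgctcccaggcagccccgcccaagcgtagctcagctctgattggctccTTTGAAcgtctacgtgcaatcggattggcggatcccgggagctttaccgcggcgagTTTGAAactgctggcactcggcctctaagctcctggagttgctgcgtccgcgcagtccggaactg

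Cdc20: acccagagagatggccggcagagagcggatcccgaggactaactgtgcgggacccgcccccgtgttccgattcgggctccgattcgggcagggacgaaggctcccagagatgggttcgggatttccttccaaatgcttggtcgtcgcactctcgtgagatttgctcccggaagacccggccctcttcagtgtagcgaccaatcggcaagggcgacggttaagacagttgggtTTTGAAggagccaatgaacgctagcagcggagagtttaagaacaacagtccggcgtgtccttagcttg

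The letters occur 2 times in the Cdk1 window and 1 time in the Cdc20 window. They were found in 18 of the 24 cell cycle genes with a window (75%), against 20.23% of the windows of 27025 genes. Among 28 replication genes with a window the share was 17.86%. CCAAT, a further element of mitotic promoters, was in 83.33% of the cell cycle windows and 41.06% of all windows, and also in 80% of 10 MHC class II windows and 64.29% of the replication windows. A match describes the sequence and is not a site of measured binding.

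Most genes of the oxygen response and glycolysis rose. Of 25 genes of hypoxia and glycolysis, 17 were higher and 3 lower. The median was 0.92, with 1.06 in HBSS lungs and 1.09 in treated lungs without replicate 2. Ldha, which makes lactate, was at 3097, 3191, 3439.7, 3308 and 3346 in tumour-free and at 13788, 3799.8, 12571, 12991 and 13848 in treated lungs (1.66 ± 0.33, adjusted p = 0.00584). The groups did not overlap, and the 4 lungs other than replicate 2 lay close together. The glucose transporter gene Slc2a1 rose by 1.87 ± 0.37, the glycolytic enzyme gene Pgk1 by 2.05 ± 0.37 and the oxygen-sensing hydroxylase gene Egln3 by 4.39 ± 0.81. Vegfa, the growth factor of endothelium, which normal alveolar epithelium makes in quantity, was at 1246, 11832, 1802, 1546 and 2132 against 11435 to 13362 (-2.33 ± 0.52). Replicate 2 lay within the tumour-free range of Vegfa.

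The promoters of Ldha and Slc2a1 are shown because the core of the hypoxia response element is ACGTG. The Ldha window is chr7:46845554-46845853 on the plus strand, 1 of 2 windows of that gene, and the Slc2a1 window is chr4:119108495-119108794 on the plus strand, both from RefSeq on GRCm38.p6. Capitals mark ACGTG or its complement CACGT.

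Ldha: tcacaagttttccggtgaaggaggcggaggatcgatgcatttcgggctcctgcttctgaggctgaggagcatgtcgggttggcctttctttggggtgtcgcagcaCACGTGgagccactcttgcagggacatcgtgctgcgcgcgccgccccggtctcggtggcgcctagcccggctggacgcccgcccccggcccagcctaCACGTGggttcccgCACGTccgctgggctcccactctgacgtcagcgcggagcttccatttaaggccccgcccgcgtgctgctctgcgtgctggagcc

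Slc2a1: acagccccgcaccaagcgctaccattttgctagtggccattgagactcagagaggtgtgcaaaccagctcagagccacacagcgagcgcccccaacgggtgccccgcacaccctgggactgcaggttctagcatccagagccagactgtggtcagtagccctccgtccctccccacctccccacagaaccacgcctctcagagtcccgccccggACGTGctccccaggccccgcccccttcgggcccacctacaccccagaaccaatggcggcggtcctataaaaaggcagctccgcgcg

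The letters match 5 times in this Ldha window, where CACGTG counts once on each strand, and 1 time in that of Slc2a1. They were in 18 of 24 genes of the list with a window (75%) and in 21.78% of all genes with one. The share was 42.86% among replication genes and 33.33% among cell cycle genes, also above that of all genes.

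Alveolar and airway epithelial genes were lower in treated lungs. Of 19 alveolar type 2 genes, 16 were lower and 1 higher, with a median of -2.01 (-3.33 in HBSS lungs). Sftpc, the surfactant protein that defines these cells, was at 171137, 195966, 181556, 172352 and 184681 in tumour-free and at 21896, 164672, 66999, 28226 and 42964 in treated lungs (-1.87 ± 0.48, adjusted p = 0.00864). In HBSS lungs it was at 4598, 6542, 11249, 39572 and 97273, a range that spans the treated lungs other than replicate 2. Abca3, which loads surfactant lipid, changed by -2.48 ± 0.41 and Hc, complement C5, by -3.17 ± 0.54. The alarmin gene Il33 was the 1 higher gene (0.54 ± 0.20, adjusted p = 0.0401), a call lost without any of tumour-free replicates 1 to 5 or treated replicates 1, 3 and 4 (adjusted p up to 0.0941).

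All 17 genes of alveolar type 1 cells, the thin cells of gas exchange, were lower, with a median of -2.31 (-3.51 in HBSS lungs). Ager was at 2322, 28186, 5401, 3678 and 5178 in treated against 26882 to 30328 in tumour-free lungs (-2.31 ± 0.54), and replicate 2 lay within the tumour-free range. The anchoring protein gene Akap5 changed by -3.30 ± 0.60. Of 20 club cell genes, 17 were lower. Scgb1a1, the secretoglobin of club cells, was at 21967, 316621, 51945, 28290.4 and 50142 against 269816 to 300225 (-2.38 ± 0.61), replicate 2 being the highest of the 10 libraries. Cyp2f2, a detoxifying enzyme of these cells, changed by -3.28 ± 0.79. Of 22 measured ciliated cell genes, 21 were lower. Foxj1, the regulator of motile cilia, was at 119.7, 2499, 238, 262 and 412 against 1306 to 1538 (-1.91 ± 0.64), again highest in replicate 2, and its call was lost without tumour-free replicate 3 or 4 or treated replicate 1, 3 or 4 (adjusted p up to 0.0633). The dynein gene Dnah5 changed by -2.94 ± 0.72. Of the 12 basal and squamous genes 6 reached the filter of 10 or more in 5 libraries. Of these 2 were lower, 33.3% against 32.7% of all genes (1 without tumour-free replicate 3, 4 or 5 or treated replicate 1, 3 or 4). Trp63 and Krt14 stayed under the filter, and Krt5 had a log2 fold change of -0.87 ± 0.71 (adjusted p = 0.301), which turned positive after quantile normalization.

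Developmental signalling genes were mostly lower. Of 34 measured genes of FGF, Wnt, BMP and Hedgehog signalling, 29 were lower and 3 higher. The median was -1.81, with -2.40 in HBSS lungs and -2.30 in treated lungs without replicate 2. Fgfr2, the epithelial receptor of mesenchymal FGF ligands, was at 118 to 2155 against 2222 to 2806 (-2.93 ± 0.62). Wnt2 and Bmp4 changed by -2.83 ± 0.67 and -2.56 ± 0.47. Fgfr1, the receptor more typical of mesenchyme, rose by 1.39 ± 0.42.

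Endothelial genes were lower throughout. All 26 genes of the general endothelial list passed the test as lower, with a median of -2.49 (-3.36 in HBSS lungs and -3.08 in treated lungs without replicate 2). Cdh5, the cadherin of endothelial junctions, was at 15009, 15050.0, 15231, 14348 and 13718 in tumour-free and at 666, 9799, 1091, 1396 and 1518 in treated lungs (-3.09 ± 0.58, adjusted p = 0.00584). The groups did not overlap, and replicate 2 was much nearer to the tumour-free lungs than the others. Kdr, the main VEGF receptor, changed by -3.58 ± 0.67 and Pecam1, an adhesion molecule, by -2.73 ± 0.55. Of 21 capillary genes, 20 were lower. Ednrb, of aerocytes, the large capillary cells, changed by -3.17 ± 0.60 and Aplnr, the apelin receptor, by -3.64 ± 0.38. The lipase anchor gene Gpihbp1 had a smaller change (-1.07 ± 0.39, adjusted p = 0.0357), and its call was lost without any of tumour-free replicates 1 to 5 or treated replicates 1, 4 and 5 (adjusted p up to 0.0843).

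Of 22 measured genes of arteries, veins and lymphatics, 20 were lower. The arterial gap junction gene Gja5 changed by -2.07 ± 0.35, and Prox1, the regulator of lymphatic identity, by -2.08 ± 0.34. Dkk2 was the 1 higher gene of that list. Of 19 genes of sprouting vessels, 12 were lower and none higher, 4 being higher without treated replicate 2. Apln, the apelin ligand of tip cells, was at 449, 676, 319, 611 and 670.4 against 1048 to 1417 (-1.16 ± 0.21), with no overlap. Angpt2, a destabilizer of vessels, changed by -1.18 ± 0.25 and Esm1, a tip cell gene, by -1.85 ± 0.43.

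Fibroblast and smooth muscle genes were mostly lower. Of 27 measured fibroblast genes, 23 were lower and 3 higher (median -2.76, and -4.24 in HBSS lungs). Tcf21, the transcription factor of lipofibroblasts, was at 87.3, 1317, 242, 109.8 and 179 against 1409 to 2165 (-2.94 ± 0.61). Pdgfra, a receptor of lung fibroblasts, was at 1590.0, 2239, 1402, 1885 and 1647 against 4154 to 5091 (-1.44 ± 0.15, adjusted p = 0.00139), and replicate 2, its highest treated value, stood near the other treated lungs. Lum, a small proteoglycan of collagen fibrils, was at 129, 170.4, 179, 122 and 160.4 in tumour-free and at 10103, 178, 11051, 6331 and 6823 in treated lungs (4.67 ± 0.97), the highest treated values being replicates 1 and 3. All 22 measured genes of smooth muscle and pericytes were lower (median -2.63, and -3.62 in HBSS lungs). The smooth muscle myosin gene Myh11 changed by -3.56 ± 0.74 and Acta2, smooth muscle actin, by -2.38 ± 0.52.

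Collagen genes were more often lower than higher, and single chains went both ways. Of 23 measured collagen genes, 13 were lower and 4 higher (median -1.98, and -1.58 in HBSS lungs), with 7 higher without treated replicate 2. Col1a1, the main fibrillar chain, was at 8492, 7546, 8026, 5792 and 8519 in tumour-free and at 402, 1852, 969, 2027 and 2553 in treated lungs (-2.54 ± 0.44, adjusted p = 0.00584). The groups did not overlap, and replicate 2 was within the span of the other treated lungs. Col3a1, its companion in fibrils, was at 37479, 4088, 48544, 51798 and 51873 against 6608 to 11792 (1.49 ± 0.64, adjusted p = 0.0646), and was called without replicate 2 (2.20 ± 0.18, adjusted p = 5.23e-07). Col18a1, the source of endostatin, rose by 1.97 ± 0.59, the basement membrane chain gene Col4a1 changed by -1.65 ± 0.30, and the transmembrane collagen gene Col13a1 by -3.91 ± 0.70.

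Of 37 measured laminin, elastic fibre and other matrix genes, 22 were lower and 7 higher. Elastin (Eln) was at 575 to 1581 against 2299 to 5597 (-2.22 ± 0.32), and Lama3, an epithelial laminin chain, changed by -3.64 ± 0.64. Thbs2, a matricellular inhibitor of vessel growth, was at 4289, 60.0, 3613, 5027 and 3067 against 52.1 to 76.0 (4.81 ± 1.05). Fibronectin (Fn1) rose by 1.55 ± 0.55 (adjusted p = 0.0314), a call lost without any 1 library other than treated replicate 2 (adjusted p up to 0.0745). Of 18 genes that process or crosslink collagen, 9 were higher (50%) and 6 lower (33.3%), against 26.6% and 32.7% of all genes. The lysyl hydroxylase gene Plod2 rose by 1.24 ± 0.33, whereas the crosslinking oxidase genes Lox and Loxl1 changed by -1.48 ± 0.22 and -3.22 ± 0.46.

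**Figure D2:**
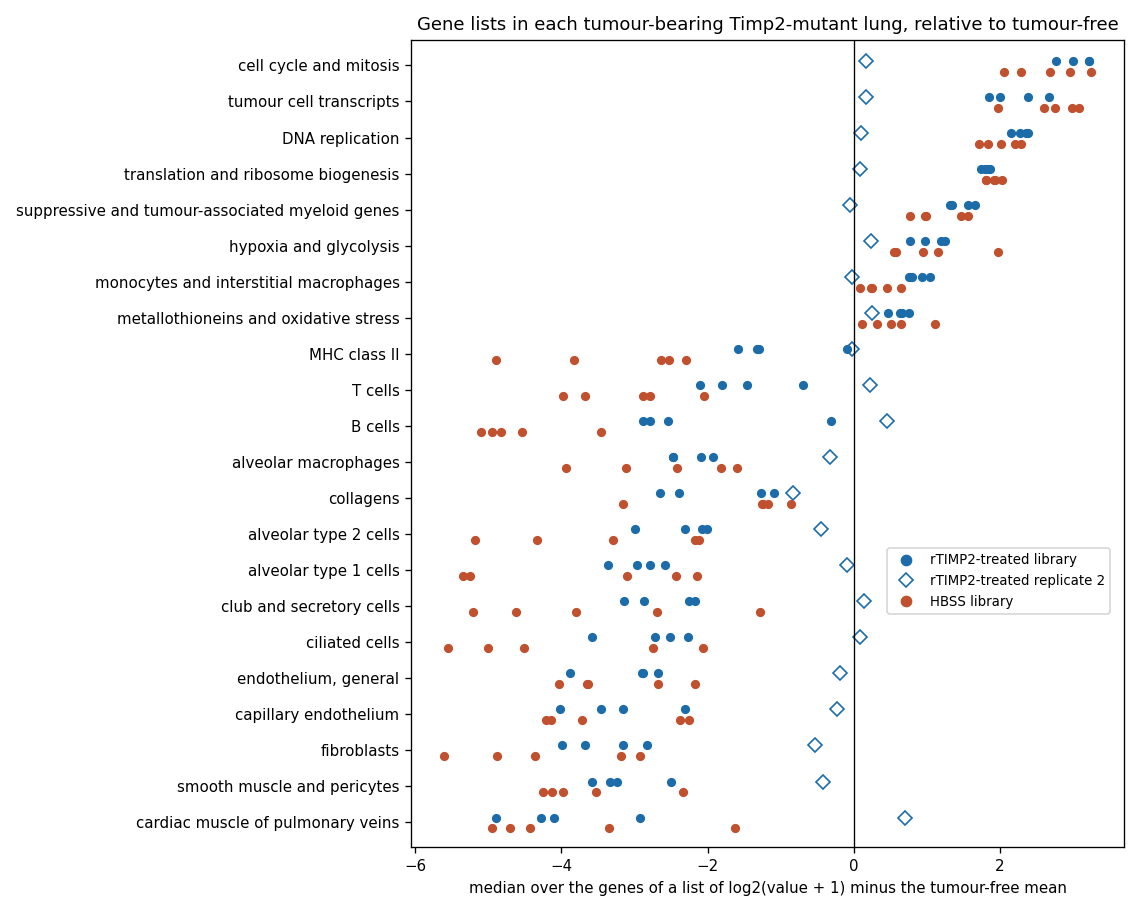
Median over the genes of a list of log2(value + 1) in 1 library minus the mutant tumour-free mean, for 22 lists, with 1 point per library of the rTIMP2-treated and HBSS groups. Open diamonds are treated replicate 2, which lies between -0.83 and 0.70 on the lists drawn; the other treated lungs are at 2.77 to 3.22 on the cell cycle list.

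Alveolar macrophage genes were mostly lower, whereas genes of monocytes and interstitial macrophages went both ways. Of 21 measured alveolar macrophage genes, 16 were lower and 1 higher, or 2 without treated replicate 2 (median -1.92, and -2.70 in HBSS lungs). Pparg, the regulator of their identity, was at 29.4, 147, 47.1, 39.8 and 19.4 against 155 to 182 (-1.92 ± 0.44). The protease gene Ctsk was the 1 higher gene (0.96 ± 0.27). Marco, a scavenger receptor, changed by -1.51 ± 0.54, a call lost without tumour-free replicate 1, 2, 4 or 5 or treated replicate 1 (adjusted p up to 0.0683). Of 25 genes of monocytes and interstitial macrophages, 12 were higher (48%) and 6 lower (24%), against 26.6% and 32.7% of all genes. C1qa, the complement component made by tissue macrophages, was at 403, 465, 599, 613 and 497 in tumour-free and at 3973, 554, 4617, 3904 and 4576 in treated lungs (2.47 ± 0.53, adjusted p = 0.00587). Replicate 2 lay within the tumour-free range. The lipid receptor gene Trem2 rose by 3.36 ± 0.57 with no overlap. Nr4a1, the regulator of patrolling monocytes and an early response gene, changed by -2.57 ± 0.61.

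Genes of suppressive, tumour-associated myeloid cells were mostly higher, 13 of 23 measured (56.5%, against 26.6% of all genes). Lower were 6 (26.1%, against 32.7% of all genes), or 3 without tumour-free replicate 1 or 2 or treated replicate 1. The median was 1.14, with 1.16 in HBSS lungs and 1.40 in treated lungs without replicate 2. Spp1, osteopontin, was at 701, 854, 661, 1098 and 642 in tumour-free and at 25637, 1682, 21353, 15616 and 11850.0 in treated lungs (3.84 ± 0.63, adjusted p = 0.00584). All treated values were above the tumour-free range, replicate 2 the lowest. Arg1, which degrades arginine, was at 3714, 102, 2446, 1175 and 994 against 27.2 to 39.0 (4.83 ± 0.79). Gpnmb, a lysosomal glycoprotein of lipid-laden macrophages, rose by 2.43 ± 0.59.

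Neutrophil genes were mostly not called. Of 18 measured, 4 were higher (22.2%), 2 lower (11.1%) and 12 not called, against 26.6% higher and 32.7% lower among all genes. The granule genes S100a8 and S100a9 had log2 fold changes of 0.74 ± 0.64 and 0.53 ± 0.67 (adjusted p = 0.332 and 0.506), with S100a8 at 305, 588, 1522, 136 and 212 in treated and 132, 154, 211, 682 and 203 in tumour-free lungs. The values of the groups overlapped. The receptor gene Clec4d rose by 3.40 ± 0.57. Of 17 mast cell, basophil and eosinophil genes 8 reached the filter, 6 of them lower, and the defining genes Cpa3, Mcpt8 and Prg2 did not reach it.

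Of 33 measured chemokine, cytokine and receptor genes, 12 were higher (36.4%) and 9 lower (27.3%), against 26.6% and 32.7% of all genes tested. Ccl2, the attractant of monocytes, was at 15.2, 18.1, 22.7, 20.0 and 22.5 in tumour-free and at 1654, 55.0, 1403, 999 and 1079 in treated lungs (5.04 ± 0.80, adjusted p = 0.00584). The groups did not overlap. Cxcl12, a stromal chemokine that retains leukocytes, was at 237, 3777, 531, 440.0 and 866 against 4107 to 5314 (-2.67 ± 0.59). The receptor of Il33, Il1rl1, chosen after its values were seen, was at 4091, 163, 1478, 1719 and 1438 in treated and at 58.1 to 92.8 in tumour-free lungs (4.02 ± 0.68). Saa3, an acute phase gene, also chosen after its values were seen, was at 228, 299, 1910.0, 85.5 and 312 against 12.4 to 16.9, and replicate 2 was among the treated lungs rather than near the tumour-free ones.

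Lymphocyte lists had medians below 0 in treated lungs and farther below 0 in HBSS lungs, relative to tumour-free lungs. Of 25 T cell genes, 17 were lower and 1 higher (median -1.18, and -3.09 in HBSS lungs). Cd3e, a chain of the T cell receptor complex, was at 80.6, 101, 79.8, 78.3 and 71.3 in tumour-free, 18.6, 96.3, 15.1, 24.3 and 42.0 in treated and 3.06, 7.53, 5.80, 19.0 and 7.51 in HBSS lungs (-1.37 ± 0.44 for treated, adjusted p = 0.022). Replicate 2 lay within the tumour-free range, and replicates 1, 3, 4 and 5 below it. Cd4 changed by -0.94 ± 0.27, and Lef1, a factor of naive T cells, by -2.51 ± 0.63. The count of lower T cell genes was 22 without treated replicate 2, and 7 to 11 without any of tumour-free replicates 1 to 5 or treated replicates 1, 3 and 4. The call of Cd3e was lost without tumour-free replicate 2 or treated replicate 1 or 3 (adjusted p up to 0.0532).

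Of 20 measured B cell genes, 8 were lower (40%, against 32.7% of all genes) and none higher. The median was -1.64, and -4.62 in HBSS lungs. Ms4a1, which encodes CD20, was at 398, 421, 413, 236 and 228 in tumour-free, 51.0, 439, 77.3, 31.1 and 214 in treated and 7.15, 4.30, 0.966, 13.3 and 7.51 in HBSS lungs. Treated replicates 2 and 5 lay highest, yet replicates 1, 3 and 4 were also above every HBSS lung. The difference from tumour-free lungs was -1.65 ± 0.63 (adjusted p = 0.0426), a call lost without any of tumour-free replicates 1 to 5 or treated replicates 1, 3 and 4 (adjusted p up to 0.0994). Without 1 library the count of lower B cell genes ran from 0 (without treated replicate 3) to 18 (without treated replicate 2), and every library left out moved it by over 1.5 times. Of 17 measured NK and cytotoxic genes, 4 were lower (23.5%, against 32.7% of all genes) and 1 higher, with 13 lower without treated replicate 2 and 2 lower without tumour-free replicate 1, 2, 3, 4 or 5 or treated replicate 1 or 4. The granule genes Gzma and Prf1 changed by -2.06 ± 0.75 and -2.21 ± 0.62. Both were at 0 to 8.35 and 1.93 to 9.19 in HBSS lungs, and the call of Gzma was lost without any of tumour-free replicates 1 to 5 or treated replicates 1, 3 and 4 (adjusted p up to 0.0812).

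More genes of antigen presentation by MHC class II were lower than higher. Of 13 class II genes, 7 were lower and 1 higher (median -0.85, and -3.30 in HBSS lungs). Ciita, the master regulator of class II genes, was at 511, 524, 635, 679 and 405 in tumour-free, 88.3, 489, 130.0, 144 and 329.6 in treated and 15.3, 12.9, 24.2, 40.0 and 25.0 in HBSS lungs (-1.49 ± 0.42 for treated against tumour-free, adjusted p = 0.0129). Replicate 2 lay within the tumour-free range and the other treated lungs below it, while treated and HBSS values did not overlap. H2-Aa, a class II chain, was at 1743, 5153, 1807, 2062 and 4024 in treated and at 366, 174, 1263, 1304 and 719 in HBSS lungs. The invariant chain gene Cd74 changed by -1.50 ± 0.45. Ctss, the protease that trims the invariant chain, rose by 0.93 ± 0.30. The count of lower class II genes was 11 without treated replicate 2, and 2 to 4 without tumour-free replicate 1, 2, 3 or 4 or treated replicate 1, 3 or 4. The call of H2-Aa (-0.96 ± 0.32, adjusted p = 0.0241) was lost without tumour-free replicate 3 or 4 or treated replicate 1, 3 or 4 (adjusted p up to 0.061). Of 20 measured dendritic cell genes, 13 were lower and 1 higher. Xcr1, of the cells that present to CD8 T cells, was at 15.7, 41.3, 19.8, 26.2 and 26.6 in treated and 0, 0, 0.966, 9.51 and 0.835 in HBSS lungs, against 35.1 to 78.9 in tumour-free ones. Fscn1 was the 1 higher gene (2.46 ± 0.67), an actin bundler of mature dendritic cells and of other motile cells.

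**Figure D3:**
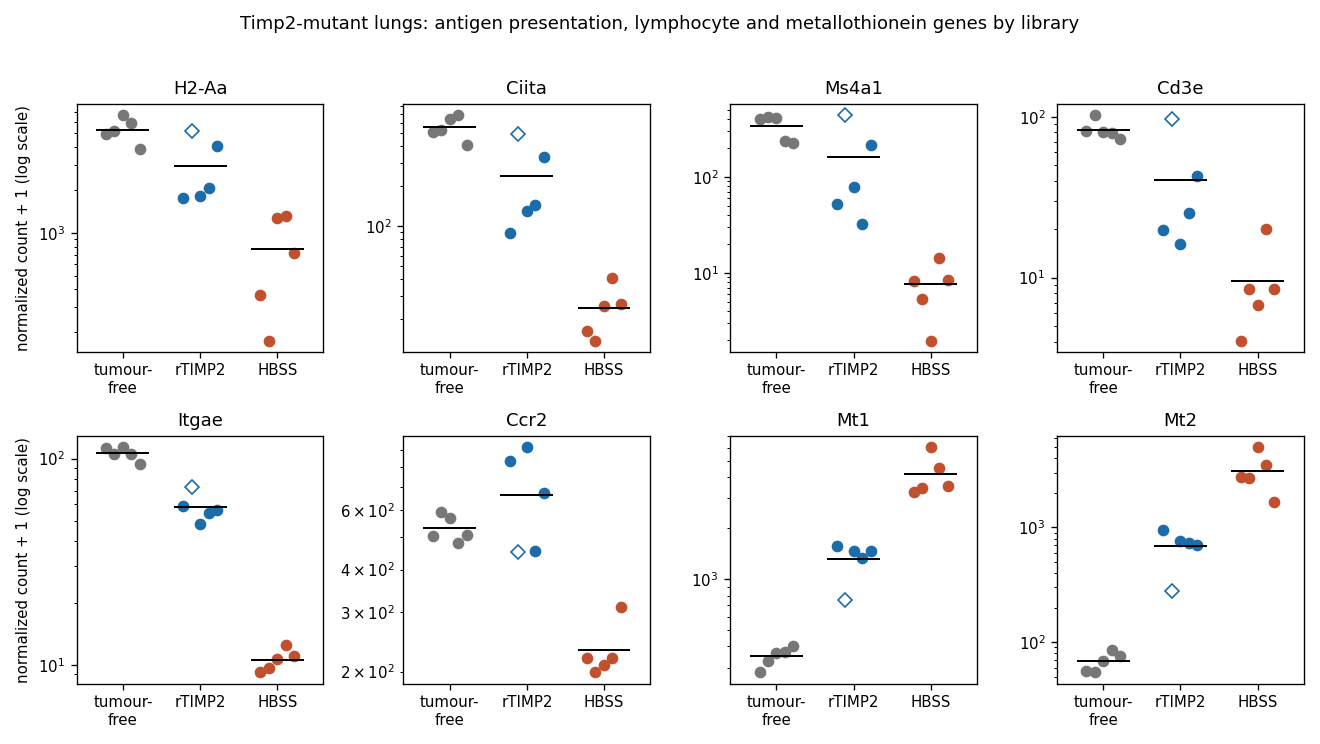
Normalized counts plus 1 (log axis) of 8 genes of antigen presentation, lymphocytes, monocytes and metal binding in the tumour-free, rTIMP2-treated and HBSS lungs of Timp2-mutant mice. Points are libraries, open diamonds are treated replicate 2 and bars are group means; for Itgae, Mt1 and Mt2 all 5 treated lungs lie between the other groups.

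The treated and HBSS lungs were then compared directly, 5 against 5. Of 16248 genes tested with limma none was called at an adjusted p under 0.05 (0.0%), and 1559 (9.6%) had an unadjusted p under 0.05, with 999 (6.15%) higher and 560 (3.45%) lower in treated lungs. The smallest adjusted p was 0.0527, for Itgae, the integrin chain CD103 of tissue-resident T cells and dendritic cells, chosen after its values were seen. Itgae was at 112, 105, 112, 104 and 92.8 in tumour-free, 57.9, 71.8, 47.1, 53.4 and 55.3 in treated and 8.17, 8.60, 9.66, 11.4 and 10.0 in HBSS lungs (2.45 ± 0.30 for treated against HBSS). No values overlapped among the 3 groups, and replicate 2 stood with the other treated lungs. A fit with all 6 intratracheal groups, which share 1 estimate of the spread, called 575 genes (3.54%), with 410 (2.52%) on the higher and 165 (1.02%) on the lower side. With library weights 468 (2.88%) passed, 312 (1.92%) on the higher and 156 (0.96%) on the lower side.

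The lymphocyte and class II genes that were tested had mostly higher values in treated than in HBSS lungs. The filter of 10 or more in 5 libraries admits a gene that is low in HBSS lungs only through its treated values. Of genes tested against tumour-free lungs, 9 of 17 NK, 16 of 20 B cell and 18 of 20 dendritic cell genes entered. For T cells 24 of 25 entered, and for class II 13 of 13. Shares and medians below cover these members only, so they are no test of the whole lists. Among tested members, unadjusted p was under 0.05 with higher values for 11 of 13 class II genes (median 2.23), 13 of 16 B cell genes (median 2.86), 18 of 24 T cell genes (median 1.79), 8 of 9 NK and cytotoxic genes (median 1.99) and 8 of 18 dendritic cell genes (median 1.09), against 6.15% of all genes and a median of 0.03. Without replicate 2, 1539 of all genes (9.37%) had an unadjusted p under 0.05, 5.78% higher and 3.58% lower, and the list counts were 11, 12, 17, 8 and 8, with medians of 2.05, 2.35, 1.41, 1.69 and 1.02. Treated and HBSS values did not overlap, with treated higher, for 10 class II, 8 B cell, 6 T cell, 2 NK and 6 dendritic cell genes, against 1.11% of all genes, while 2.07% did not overlap in either direction. For a gene with every HBSS value under 10, the filter fixes this lack of overlap in advance. These counts are therefore descriptive only. In the fit of all 6 groups, under the same filter, 11, 12, 13, 6 and 8 genes of these lists were called. Lists of airway and alveolar epithelium also had positive medians. For ciliated cell genes the median was 1.94, with 12 of 22 higher at an unadjusted p under 0.05, above the share and median of the dendritic cell list, and it was 1.28 with 4 such genes without replicate 2. The median was 1.64 with 5 of 19 genes for club and secretory cells, 1.22 with 7 of 19 for alveolar type 2 cells and 1.24 with 4 of 17 for alveolar type 1 cells. Without replicate 2 these were 1.01 with 2 genes, 0.87 with 5 and 0.63 with 2. No gene of these 4 lists was without overlap, and the fit of all 6 groups called 4 of alveolar type 2 cells, 1 of alveolar type 1 cells and 0 of the others. For basal and squamous epithelium the median over 3 tested genes was -1.27, with none at an unadjusted p under 0.05. Endothelial genes had a median of 0.87, and 0.30 without replicate 2. Other lists had positive medians too. The median was 1.40 for fibroblasts, with 7 of 27 genes higher at an unadjusted p under 0.05. For mesothelium it was 1.30 with 2 of 11, and for interferon-stimulated genes 0.90 with 6 of 35. Without replicate 2 these medians were 0.75, 0.73 and 0.74. Negative medians included -0.55 for tumour-cell transcripts and -0.42 for translation and ribosome genes. Without replicate 2 these were -0.0013 and -0.094. Cell cycle genes had a median of -0.28, and 0.24 without replicate 2.

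The values of single genes in the direct comparison were as follows. Ciita had a log2 difference of 3.09 ± 0.50 (unadjusted p = 5.10e-05, adjusted p = 0.184) and H2-Aa of 2.16 ± 0.55 (adjusted p = 0.325). Ms4a1 differed by 4.04 ± 0.75 (adjusted p = 0.209) and Xcr1 by 3.63 ± 0.65 (adjusted p = 0.207). Xcr1 was below the filter level in every HBSS lung, so it was tested only because its treated values were high. Ms4a1 was below that level in most HBSS lungs and entered mainly through its treated values. The differences of Ms4a1 and Xcr1 are therefore descriptive only. The monocyte chemokine receptor gene Ccr2 was at 832, 450.2, 916, 453 and 671 in treated and 218, 198, 209, 219 and 309 in HBSS lungs, a difference of 1.48 ± 0.25 (adjusted p = 0.184), with treated values spanning the tumour-free range of 478 to 589. Fam167a, chosen after its values were seen, was higher in every treated than in every HBSS lung (183 to 342 against 46.2 to 98.6). Among genes lower in treated than in HBSS lungs, Itga10, a collagen-binding integrin of cartilage, was at 208, 40.3, 123, 174 and 94.5 against 2479, 1874, 883, 641 and 242 (-3.03 ± 0.62), and the cold-inducible RNA-binding gene Cirbp at 657 to 1103 against 1264 to 2504 (-1.14 ± 0.24). Neither was called, and both were picked with their values known (adjusted p = 0.269 and 0.269).

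Metallothioneins, small proteins that bind zinc and copper, rose in treated lungs, where their values lay below those of HBSS lungs. Mt1 was at 279.7, 327, 367, 372 and 400.4 in tumour-free, 1570.4, 754, 1471, 1340.4 and 1458 in treated and 3296, 3439, 6014, 4516 and 3539 in HBSS lungs. Mt2 was at 55.0, 53.3, 67.1, 84.6 and 75.0 in tumour-free lungs, at 947, 278, 764, 738 and 696 in treated lungs and at 2762, 2683, 5003, 3537 and 1669.9 in HBSS lungs. For both genes the 3 groups did not overlap, and replicate 2 was above the tumour-free range as the lowest treated value. Against tumour-free lungs Mt1 rose by 1.88 ± 0.20 (adjusted p = 0.00165) and Mt2 by 3.25 ± 0.31 (adjusted p = 0.000821). Against HBSS lungs the differences were -1.66 ± 0.25 and -2.21 ± 0.36 (adjusted p = 0.184 and 0.184), and 0.96% of all genes were as separated in this direction. Of 18 genes of the metallothionein and oxidative stress list, 10 were higher (55.6%) and 6 lower (33.3%) than in tumour-free lungs. Of all genes 26.6% were higher and 32.7% lower. Hmox1, which degrades haem, rose by 2.19 ± 0.47, and Sod3, the extracellular superoxide dismutase, changed by -3.17 ± 0.68. These 2 genes had differences of -0.24 ± 0.51 and 2.04 ± 0.90 from HBSS lungs (adjusted p = 0.877 and 0.506).

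The promoters of Mt1 and Mt2 are shown because both genes lie side by side and carry metal response elements. The Mt1 window is chr8:94178839-94179138 and the Mt2 window chr8:94172368-94172667, both on the plus strand, from RefSeq on GRCm38.p6. Capitals mark TGCACNC or TGCGCNC, in which N is any base, on either strand.

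Mt1: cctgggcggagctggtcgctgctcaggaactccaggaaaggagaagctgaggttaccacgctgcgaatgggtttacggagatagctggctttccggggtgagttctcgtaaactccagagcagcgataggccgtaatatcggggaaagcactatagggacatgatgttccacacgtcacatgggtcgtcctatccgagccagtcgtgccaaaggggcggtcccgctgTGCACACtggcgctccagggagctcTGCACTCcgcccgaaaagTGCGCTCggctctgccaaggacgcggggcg

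Mt2: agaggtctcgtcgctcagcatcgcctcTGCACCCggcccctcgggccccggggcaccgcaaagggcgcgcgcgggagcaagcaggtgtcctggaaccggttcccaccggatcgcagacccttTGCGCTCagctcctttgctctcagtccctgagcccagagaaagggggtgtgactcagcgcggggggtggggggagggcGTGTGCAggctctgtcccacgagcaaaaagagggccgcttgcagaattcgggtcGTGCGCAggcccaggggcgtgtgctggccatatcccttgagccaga

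The core was found 3 times in the Mt1 window and 4 times in the Mt2 window, and at least once in 28.23% of the windows of all genes. In the list of metallothioneins and oxidative stress it was in 5 of 14 windows (35.71%), a lower share than among hypoxia (62.5%) or replication genes (60.71%).

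Most interferon and class I genes were not called. Of 35 measured interferon-stimulated genes, 13 were lower (37.1%) and 2 higher (5.71%), with a list median of -0.47 (-1.12 in HBSS lungs). Of all genes 32.7% were lower and 26.6% higher, so the lower share was near that of all genes. The higher genes, Cxcl9 and Cxcl10, attract T cells. Cxcl9 was at 89.3, 21.6, 38.6, 130.2 and 315 against 5.69 to 15.5 (2.97 ± 0.64), and Cxcl10 at 53.9, 103, 110.2, 122 and 333 against 22.5 to 34.5 (2.02 ± 0.41), both highest in replicate 5. Isg15 and Ifit1, genes induced in most cells by interferon, had log2 fold changes of 0.32 ± 0.36 and -0.06 ± 0.24 (adjusted p = 0.462 and 0.837). The higher count was 4 without treated replicate 1 or 2, and the lower count 8 without tumour-free replicate 4 or treated replicate 3. Of 19 MHC class I and processing genes, 7 (36.8%) were lower, also near that share (4 without tumour-free replicate 3 or 4 or treated replicate 1). H2-Q6 changed by -1.87 ± 0.54 and the peptide transporter gene Tap1 by -0.92 ± 0.29, while B2m, the shared light chain, had a log2 fold change of -0.32 ± 0.21 (adjusted p = 0.203).

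Of 23 measured checkpoint genes, 7 were higher (30.4%) and 9 lower (39.1%), shares near those of all genes (26.6% and 32.7%). Pdcd1, the inhibitory receptor PD-1, was at 35.3, 16.7, 26.4, 36.9 and 59.4 in treated against 1.90 to 11.8 in tumour-free lungs (2.00 ± 0.47), and Ctla4 at 25.5, 13.8, 17.9, 17.5 and 56.3 against 4.53 to 8.57 (1.76 ± 0.39). Both counts are low, and HBSS values spanned 2.04 to 33.3 and 0 to 37.7. The ligand gene Cd274 was at 199, 233, 184, 167 and 222 against 292 to 407 (-0.71 ± 0.15), with no overlap. Tnfrsf9, the costimulatory receptor 4-1BB, rose by 2.38 ± 0.62. Of 13 measured plasma cell genes, 4 were lower (30.8%) and 2 higher (1 without tumour-free replicate 1 or 2 or treated replicate 1 or 5). Prdm1, a regulator of plasma cells and of other lymphocytes, changed by -2.34 ± 0.37, and Jchain had a log2 fold change of -0.52 ± 0.54 (adjusted p = 0.424).

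Of 21 immediate early genes, 13 were lower (61.9%, against 32.7% of all genes) and 1, Myc, higher. Fos was at 6171, 3660.0, 7553, 312 and 3932 in tumour-free and at 202, 531, 222, 249.6 and 306 in treated lungs (-3.36 ± 0.75), the lowest tumour-free value lying inside the treated range. Of 22 heat shock genes, 8 were higher (36.4%, against 26.6% of all genes) and 2 lower (5 lower without treated replicate 2, and 1 without any other library). The inducible gene Hspa1a, a near-identical copy of Hspa1b, was at 83.0, 7569, 99.7, 314 and 326 against 559 to 4432, replicate 2 being the highest of the 10 libraries and the other treated lungs the 4 lowest. The mitochondrial chaperonin gene Hspe1 rose by 2.53 ± 0.36. Of 21 clock and cold-inducible genes, 7 were lower (15 without treated replicate 2) and 3 higher, 33.3% and 14.3% against 32.7% and 26.6% of all genes. Nr1d1, a repressor of the clock, was at 159.5, 2259, 193, 279 and 378 against 3966 to 5738 (-3.59 ± 0.60), and the cold-inducible gene Rbm3 rose by 1.63 ± 0.32. Of 18 genes of cell death and the p53 response, 10 (55.6%) were higher (6 without treated replicate 5) and 2 lower (1 without tumour-free replicate 1 or treated replicate 1, 4 or 5). The p53 target genes Mdm2 and Eda2r rose by 0.75 ± 0.16 and 2.62 ± 0.52, and Bbc3 had a log2 fold change of -0.18 ± 0.19 (adjusted p = 0.436). The part of tissue handling and collection time in these values was not tested.

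Among genes of tissue that a lung piece can carry along, those of heart muscle, active in the walls of pulmonary veins in mice, were lower in 14 of 15 (93.3%, against 32.7% of all genes). Myh6, a cardiac myosin, was at 2941, 3672, 2007, 4684 and 5449.6 in tumour-free and at 53, 3954, 33.4, 61.1 and 186 in treated lungs (-4.53 ± 1.09), replicate 2 being within the tumour-free range. The other 4 treated lungs lay far below it, whereas the list median in replicate 2 was 0.70 above the tumour-free mean. Of 11 measured mesothelial genes, 2 were lower (7 without treated replicate 2) and 1, Bnc1, higher (2.45 ± 0.54), 18.2% lower against 32.7% of all genes. Wt1 and Msln, which define mesothelium, had log2 fold changes of 0.02 ± 0.75 and -0.01 ± 0.53 (adjusted p = 0.985 and 0.992). Of 12 red cell and platelet genes, 2 were lower (16.7%) and Pf4 was higher (1.41 ± 0.26). The lower count was 9 without treated replicate 2, 0 without tumour-free replicate 1 or treated replicate 1, 4 or 5, and 1 without any other library. The haemoglobin gene Hbb-bs had a log2 fold change of -0.77 ± 0.63 (adjusted p = 0.307). The part of blood, heart and mesothelium in the other results was not tested.

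Treated replicate 2 had fewer genes outside the tumour-free range than the other treated lungs. Of 16754 tested genes, 4426 were above and 4802 below the tumour-free range in this library (55.1%), against 86.8 to 90.1% in the other treated libraries. Its list medians relative to tumour-free were 0.17 for the cell cycle, -0.09 for alveolar type 1 cells, -0.19 for endothelium, 0.22 for T cells and 0.45 for B cells. Heat shock genes stood at 0.74 and mesothelial genes at 1.04. Timp1, Mt1, Mt2, Saa3, Spp1 and Myc were above the tumour-free range in it, as they were in the other 4 treated lungs. Itgae, Pdgfra, Mmp2 and Col1a1 were below that range in all 5. These genes are examples, since 11.1% of tested genes were above the tumour-free range in all 5 treated lungs and 15.0% below it.

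**Figure D4:**
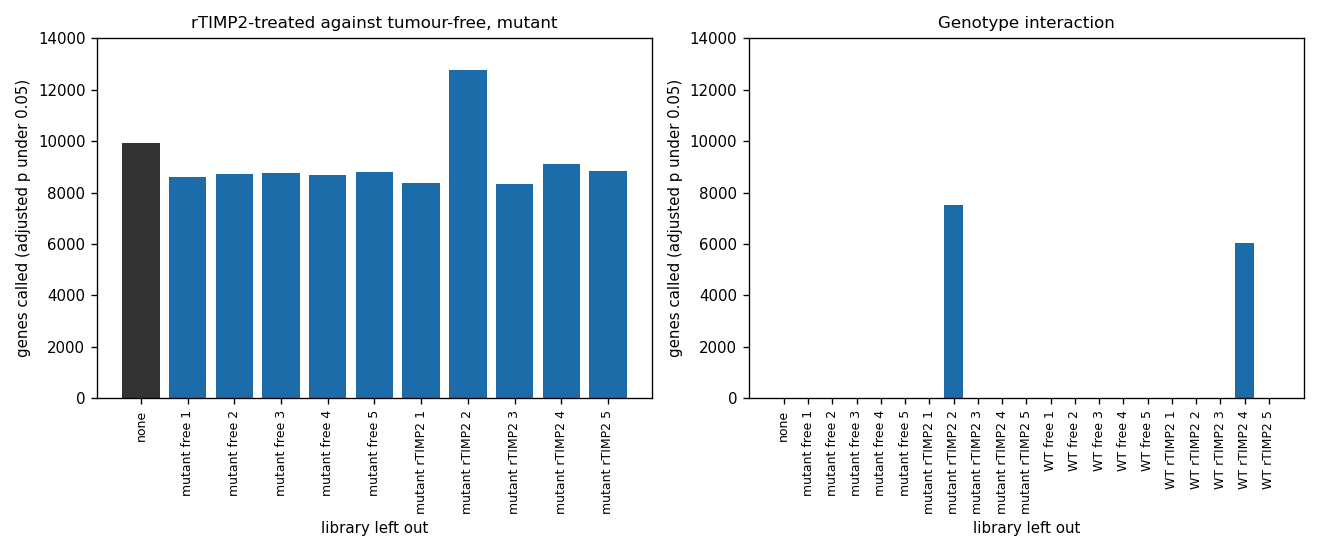
Genes called at an adjusted p under 0.05 when no library (dark bar) or 1 library was left out, for mutant treated against mutant tumour-free lungs (left) and for the interaction with genotype (right). The left count runs from 8349 to 12773, and the right count is 0 in all but 2 cases, 7515 without mutant treated replicate 2 and 6048 without WT treated replicate 4.

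Whether the difference between treated and tumour-free lungs depends on genotype was tested with WT lungs, as an interaction of 4 groups of 5. None of 17696 genes was called by limma (0.0%), and 4058 (22.9%) had an unadjusted p under 0.05, 1386 (7.83%) with a higher and 2672 (15.1%) with a lower change in mutant than in WT lungs. The smallest adjusted p was 0.218. The result rested on 2 libraries: without mutant treated replicate 2, 7515 genes (42.0%) were called, and without WT treated replicate 4, 6048 (33.9%). With library weights 11359 were called, 5094 higher and 6265 lower. In the fit with all libraries the median interaction was 1.06 for cell cycle genes, with 0 of 29 at an unadjusted p under 0.05, and -1.53 for alveolar type 1 genes, with 12 of 17 lower. It was -1.63 for endothelial genes, with 19 of 26 lower, and 0.85 for suppressive myeloid genes, with 8 of 23 higher. Hmga2 averaged 3233 ± 1978 (SD, n = 5) in mutant treated lungs and 809 ± 1213 (SD, n = 5) in WT treated ones. Timp2 had an interaction of 0.48 ± 0.23 (adjusted p = 0.218), with WT means of 10619 ± 519 in tumour-free and 8731 ± 1834 in treated lungs (SD, n = 5).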

How the data were processed

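RNA sequencing of polyadenylated RNA was deposited by the authors as 1 table of normalized counts for 26940 genes in 30 libraries of the intratracheal experiment, 5 per group. The submitters' processing notes list STAR, Bowtie2, Partek, DESeq2 and the build mm10, with no role given for each. The deposited values are a signal scaled between libraries, not raw counts: 79.4 to 83.5% of low values were whole multiples of 1 step (up to 20 steps, tolerance 0.02 of a step), so no count model was used. Estimated depth was 12.4 to 15.0 M reads in the 10 libraries compared and 10.7 to 17.1 M in all 30.

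Genes with 10 or more in at least 5 of the compared libraries were tested on log2(value + 1) with limma 3.58.1 (R 4.3.3), with trend and robust moderation and Benjamini-Hochberg adjustment over all tested genes. Called means an adjusted p under 0.05, and log2 fold changes understate the change of genes with low values. Luc2 and Hmga2 were also tested with an exact permutation test (scipy 1.17.1). Of 1037 genes in 51 lists, 1026 are in the table and 957 were tested, and counts cover tested members. Tested on simulated data over 16670 genes with an equal spread on each side, the treated against tumour-free fit recovered 84.8% of 2-fold changes. Recovery at the uneven spread of the treated lungs was not tested. Motifs were searched in RefSeq promoter windows.

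Named genes are the 12 largest rises and falls without overlap and with at least one group mean of 50 or above, preset anchor genes of each list, and the called member with the largest change in each direction. The members, lists and this rule were chosen with earlier results of these data known. Other pseudocounts, filters, scalings, fits, a replicate block and leaving out each library were tried. One anchor gene is counted in its list but not reported here by name. The other table of the series, on subcutaneous tumours, was not used here.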

Additional observations from a re-analysis of the deposited data

Results flagged for a closer look

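In the treated lungs, replicate 2 lay far from the other 4 for the reporter Luc2, with a gap to its nearest neighbour of 0.815 of the group's range on the log2 scale, and for Hmga2, with a gap of 0.879. The 95% critical value for 5 samples is 0.71. Over the 237 named genes, 1 library lay that far from the other 4 for 64 genes in the treated lungs, and in 62 of these it was replicate 2. In tumour-free lungs this held for 22 genes and in HBSS lungs for 17. Chance alone gives about 1 such case in 20 groups, and the named genes share their libraries.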

How the results depend on the processing

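The count of called genes in treated against tumour-free lungs stayed within 1.5 times of 9942 under every alternative, from 8349 without treated replicate 3 to 12773 without treated replicate 2. That of HBSS against tumour-free lungs ran from 10879 to 12778 over the libraries left out. Replicate numbers did not pair the samples: the correlations of same-numbered deviations between treated and tumour-free lungs were -0.078 to 0.006, and in 0 of 5 did a sample correlate best with its own number. With a replicate block 8611 genes were called (3723 higher, 4888 lower), 11105 in HBSS against tumour-free lungs, and 0 in treated against HBSS lungs and in the interaction. Treated against HBSS lungs gave 0 calls with any 1 library left out, 1 with a pseudocount of 10, 1 without trend and robust moderation, 575 with all 6 groups in 1 fit and 468 with array weights. The interaction gave 11359 calls with array weights and 0 to 7515 over the libraries left out, with 7515 without mutant treated replicate 2 and 6048 without WT treated replicate 4. The cause was not tested. The exact permutation p of Luc2 and Hmga2 was 0.0159 with any 1 library left out, the smallest that 4 against 5 allows.

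Single genes that changed sign under an alternative were not called in any of them. On the log2 scale, quantile normalization gave 0.27 for Krt5, 0.24 for Cxcr2, 0.084 for Xbp1, 0.013 for Ifit1 and 0.045 for Msln. Median-of-ratios rescaling gave 0.048 for Cxcr2, 0.055 for Xbp1, 0.000198 for Ifit1 and 0.053 for Msln, and equal totals 0.051, 0.057, 0.00296 and 0.056. Array weights gave 0.086 for Jchain, 0.057 for Ifit1 and -0.52 for Wt1, and a pseudocount of 10 gave 0.00017 for Cxcr2. Over the libraries left out, values ran from -0.38 to 0.39 for Cxcr2, -0.10 to 0.059 for Xbp1, -0.22 to 0.11 for Ifit1, -0.028 to 0.47 for Arntl, -0.61 to 0.54 for Wt1 and -0.39 to 0.22 for Msln.

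With 5 libraries a group and the same spread in both, simulated 1.5-fold changes were recovered in 13.6% of genes. Differences smaller than 2-fold were thus often not detectable even at that spread. The treated lungs were more uneven than the simulated ones, so larger differences can have been missed as well.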
